A study of Rattus norvegicus with 6 samples.

Results

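The genes described here are 33 hypoxia and glycolysis genes, 17 enzymes of glycolysis and lactate formation and 16 genes for HIF-1 alpha, its hydroxylases and other HIF targets. They were taken by gene name from a table of 26126 entries, and all 33 were found. RNA came from H9c2, a myoblast line derived from embryonic rat heart, and was sequenced in 6 libraries. The comparison sets 3 libraries labelled with an adenovirus for PERK against 3 with a control adenovirus. It asks how gene expression differs when PERK, an endoplasmic reticulum kinase of eIF2 alpha, is overexpressed. Cells of both groups were treated by what the labels call stimulated ischemia reperfusion, so there is no untreated, oxygenated group. Per the labels' protocols, medium with high glucose and 10% serum was replaced for the ischemia by a buffer of pH 6.2 that held 5.6 mM 2-deoxyglucose and 20 mM sodium lactate. A gas of 95% nitrogen and 5% carbon dioxide was passed through the chamber for 30 min, and the chamber stayed sealed for 1.5 to 3.5 h. The labels do not tie the libraries of a group to different cultures, and the spread behind each p-value is that among these libraries and may be technical.

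In background, HIF-1 is a transcription factor made of HIF-1 alpha and ARNT. With oxygen, prolyl hydroxylases encoded by Egln genes mark HIF-1 alpha for destruction. Without oxygen HIF-1 alpha accumulates and binds promoters and enhancers at short elements, whose core is often the letters ACGTG. Its targets include most glycolytic enzymes, which let a cell make ATP without oxygen and are used heavily by ischemic heart muscle. 2-deoxyglucose is a glucose analog that hexokinase phosphorylates and that then stalls glycolysis.

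Total counts were 89798433 to 119087414 in the PERK-labelled libraries and 77923398 to 111052659 in the control libraries. Control replicate 3 stood apart, with 19287 entries above 0 against 15377 to 16685 in the other 5, and with 45.4% of 1090 olfactory receptor genes above 0 against 6.24% to 14.5%. Eif2ak3, the gene for PERK, was at 26.5, 26.5 and 26.0 CPM (counts scaled to the size of each library) in PERK replicates 1 to 3 and at 26.4, 26.9 and 24.0 CPM in control replicates 1 to 3. Its log2 fold change was 0.03 (SE 0.06), and -0.02 without control replicate 3. The level of the targeted gene thus gives no check of the labels, by which all directions are given here. All 7 myoblast and muscle markers looked at reached 1 CPM in at least 1 library, with a summed level of 3363 to 3524 CPM in PERK-labelled and 3169.5 to 3308 CPM in control libraries. Of the markers found for other cell types, 5 of 6 for endothelium, 6 of 8 for leukocytes and 5 of 7 for epithelium stayed under 1 CPM in every library, and Lyz2, Tyrobp and Krt19 were at 0 in all 6. Their summed levels were 0.638 to 1.33 CPM in PERK-labelled against 1.36 to 2.14 CPM in control libraries for endothelium, 9.98 to 11.05 against 8.54 to 12.3 CPM for leukocytes, and 53.2 to 54.3 against 48.7 to 52.9 CPM for epithelium. Their part in the results was not tested.

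No hypoxia or glycolysis gene passed the test for a difference between PERK-labelled and control libraries. Of the 33 genes 32 had counts enough to test, all but Egln3, and 0 passed edgeR's quasi-likelihood test with Benjamini-Hochberg adjustment, with adjusted p from 0.31 to 0.998. Over all 14488 tested entries 61 passed, which is 0.421%, so a count of 0 among 32 lies near the background. At an unadjusted p under 0.05 the count was 3, or 9.38% of the 32 against 11.2% of all entries in either direction. All 3 were higher in PERK-labelled libraries, which held for 5.94% of all entries at that p. DESeq2 called 0 of the 26 genes to which it gave an adjusted p, and 4.04% of all such entries. Of the 32 genes 0 were called by limma voom (0.759% of all entries), by edgeR with robust estimation (0.911%) or by edgeR with the replicate number as a block (0.0621%). At an unadjusted p under 0.05, in either direction, there were 8 genes of the 31 with a p from DESeq2 (11.2% of all entries). Of the 32 genes there were 7 with limma voom (12.2%), 7 with robust estimation (11.8%) and 6 with the block (10.6%). In each of these, unlike the main fit, the share among the genes was above that of all entries. That difference was not tested.

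Of the 17 enzymes 13 had a log2 fold change above 0 and 4 below, with a median of 0.08. The 15 tested other genes divided into 8 above and 7 below, with a median of 0.0085. Over all tested entries the median was -0.0045 and 48.7% lay above 0. Groups that did not overlap, with every PERK-labelled library above every control library, were found for 5 of 17 enzymes and 2 of 15 other genes. Over all entries this held for 9.66%, and the opposite order for 8.55%. None of the 32 genes had the opposite order. The difference between both gene groups was not tested. RNA was taken from whole cultures, so fewer cells of a type and less RNA per cell cannot be told apart.

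**Figure D1:**
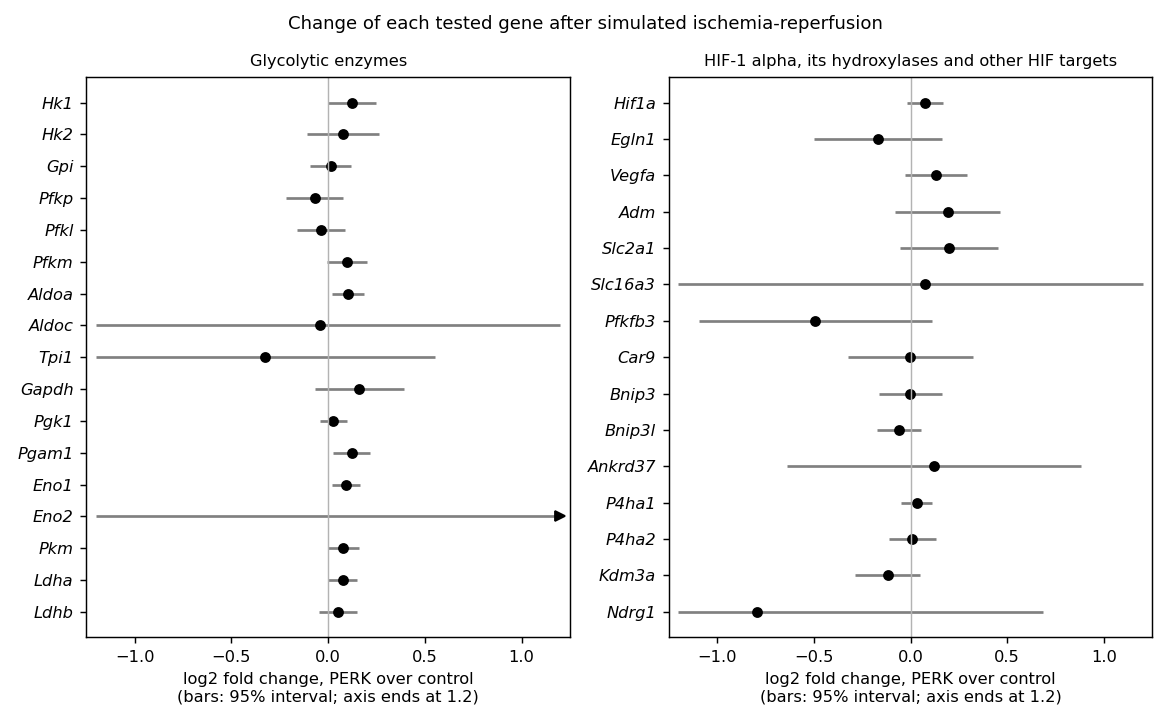
Log2 fold change (PERK over control) of the 32 tested genes on the horizontal axis, with glycolytic enzymes on the left and the other HIF genes on the right. Points are estimates, bars are 95% intervals and bars or points beyond 1.2 are drawn at the edge, as for Eno2 at 1.51. Most enzymes lie between 0 and 0.2, while Aldoc, Tpi1 and Eno2 have intervals reaching past 1 log2 unit on at least 1 side.

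The precision differed between genes. The 95% interval of the fold change stayed within 1.5-fold either way for 14 of the 17 enzymes, all but Aldoc, Tpi1 and Eno2. It did so for 11 of the 15 other tested genes, all but Slc16a3, Pfkfb3, Ankrd37 and Ndrg1. Data were simulated for this comparison over 14036 genes. There edgeR found 4 of 50 genes set to a 1.2-fold change, 29 of 50 set to 1.5-fold and 50 of 50 set to 2-fold. The changed genes were drawn from all genes at 5 CPM or more. The median SD within groups on the log2 scale was 0.06 for the enzymes and 0.12 for all tested entries. Most enzymes also had estimates under 1.2-fold, the smallest change simulated, so a rate of recovery for them was not obtained.

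Promoters are shown for the 4 genes with the most matches to ACGTG, a common form of the core of the element that HIF-1 binds. The form GCGTG was not searched and is not marked, so a gene without a match can still hold that form. RefSeq sequence of the GRCr8 assembly covered 250 bases before to 50 after the start of 30 of the 33 genes, and was searched for ACGTG on both strands. Overlapping matches were counted as 1, so that CACGTG, which reads the same on both strands and is also the E-box of factors such as MYC and USF, is 1 match. At least 1 match was found for 19 of the 30 genes, 10 of 16 enzymes and 9 of 14 others, or 63.3% against 20.9% of 27457 genes with such a window. Ldha, Hif1a and P4ha2 had 2 matches and Ankrd37 had 3. Each sequence below runs 5′ to 3′ on the plus strand from 250 bases before the start to 5 after it, with the matches in capitals. They lie at chr1:106507842-106508096 (Ldha), chr6:98359648-98359902 (Hif1a), chr10:38743644-38743898 (P4ha2) and chr16:53001257-53001511 (Ankrd37).
Ldha: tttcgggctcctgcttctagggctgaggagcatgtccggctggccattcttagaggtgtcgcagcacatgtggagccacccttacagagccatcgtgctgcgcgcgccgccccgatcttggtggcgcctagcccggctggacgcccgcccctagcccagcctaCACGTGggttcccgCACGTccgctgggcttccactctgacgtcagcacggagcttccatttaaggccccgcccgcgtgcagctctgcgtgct
Hif1a: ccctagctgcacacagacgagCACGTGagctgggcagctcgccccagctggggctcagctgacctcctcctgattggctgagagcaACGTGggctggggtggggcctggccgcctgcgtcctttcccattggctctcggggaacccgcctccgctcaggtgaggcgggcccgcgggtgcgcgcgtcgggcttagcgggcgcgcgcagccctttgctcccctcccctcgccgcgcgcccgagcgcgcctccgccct
P4ha2: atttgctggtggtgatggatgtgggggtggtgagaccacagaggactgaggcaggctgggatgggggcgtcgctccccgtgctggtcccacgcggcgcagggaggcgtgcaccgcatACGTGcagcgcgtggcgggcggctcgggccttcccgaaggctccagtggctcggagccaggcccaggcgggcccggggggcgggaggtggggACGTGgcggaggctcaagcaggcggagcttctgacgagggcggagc
Ankrd37: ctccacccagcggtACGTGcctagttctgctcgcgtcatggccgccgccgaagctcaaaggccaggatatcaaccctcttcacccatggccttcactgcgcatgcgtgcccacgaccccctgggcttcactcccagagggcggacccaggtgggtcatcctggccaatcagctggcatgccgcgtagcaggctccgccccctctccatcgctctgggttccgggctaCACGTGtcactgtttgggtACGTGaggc
In Ldha the matches begin 87 and 73 bases before the start, a close pair with 1 E-box. In Hif1a they begin 229 and 164 bases before it, in P4ha2 133 and 41, and in Ankrd37 236, 23 and 4. The 19 tested genes with a match had a median log2 fold change of 0.07 and the 10 tested genes without one 0.06. A match describes these letters only and was not tested as a binding site.

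Among the genes that run the oxygen response, Hif1a was at 112, 111 and 107 CPM in PERK replicates 1 to 3 and at 105, 103 and 105 CPM in control replicates 1 to 3. The groups did not overlap, and the difference did not pass the test (log2 fold change 0.07, SE 0.04, edgeR adjusted p = 0.527). Oxygen acts on HIF-1 alpha mainly through the protein, which these data do not measure. Egln1 encodes PHD2, the main prolyl hydroxylase and itself a HIF target. It was at 12.4, 10.01 and 10.97 CPM in PERK-labelled libraries and at 11.2, 15.1 and 11.1 CPM in control libraries, with control replicate 2 highest and the groups overlapping (log2 fold change -0.17, SE 0.14).

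Egln3, which encodes PHD3, another hydroxylase and a sensitive HIF target in many cells, had 0 counts in all 3 PERK-labelled libraries and in control replicates 1 and 2, and 22 counts in control replicate 3. Low counts in this table lie near multiples of about 6, so a library at 0 allows up to 18 counts, or 0.15 to 0.201 CPM in the PERK-labelled libraries. The 22 counts belong to the library that stood apart. The authors' deposited table gives Egln3 a log2 fold change of -5.68 with adjusted p = 0.0287, and Egln3 is the only 1 of the 33 genes under 0.05 there, where 2.27% of all entries with an adjusted p are. It had too few counts for the main edgeR fit. The edgeR fit without a filter on low counts included it and called 0 of the 33 genes (smallest edgeR adjusted p = 0.357).

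For secreted targets, Vegfa, the main growth factor of blood vessels, was at 69.7, 83.4 and 78.01 CPM in PERK-labelled libraries and at 66.8, 71.8 and 72.3 CPM in control libraries. PERK replicate 1 lay within the control range and the other 2 above it (log2 fold change 0.13, SE 0.07, edgeR adjusted p = 0.526). Adm, which encodes the vasodilator peptide adrenomedullin, was at 7.32, 6.05 and 6.77 CPM against 5.97, 5.42 and 6.24 CPM in control libraries, with overlap (log2 fold change 0.19, SE 0.12).

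Glucose uptake depends on Slc2a1, which encodes the transporter GLUT1. Its level was 8.76, 8.33 and 9.34 CPM in PERK-labelled libraries and 6.85, 8.30 and 7.87 CPM in control libraries. The groups did not overlap, with PERK replicate 2 just above control replicate 2 (log2 fold change 0.20, SE 0.11, edgeR adjusted p = 0.538). Slc16a3 encodes MCT4, which exports lactate, and stayed between 0.276 and 0.557 CPM in PERK-labelled and between 0.217 and 0.508 CPM in control libraries. Its interval, from -1.24 to 1.38 on the log2 scale, is too wide to place a change. Car9, a carbonic anhydrase that handles acid outside the cell, was at 2.88 to 3.18 CPM in PERK-labelled and 2.84 to 3.47 CPM in control libraries (log2 fold change -0.0014, SE 0.14).

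Pfkfb3 makes fructose 2,6-bisphosphate, the strongest activator of phosphofructokinase. It was at 6.64, 6.56 and 6.03 CPM in PERK-labelled libraries and at 13.5, 6.42 and 7.05 CPM in control libraries. Control replicate 1 was 2.06 times the median of the other 5 libraries, which lay close together. The log2 fold change of -0.49 (SE 0.26, edgeR adjusted p = 0.526) became -0.07 without that library, and -0.69 and -0.64 without control replicates 2 and 3.

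**Figure D2:**
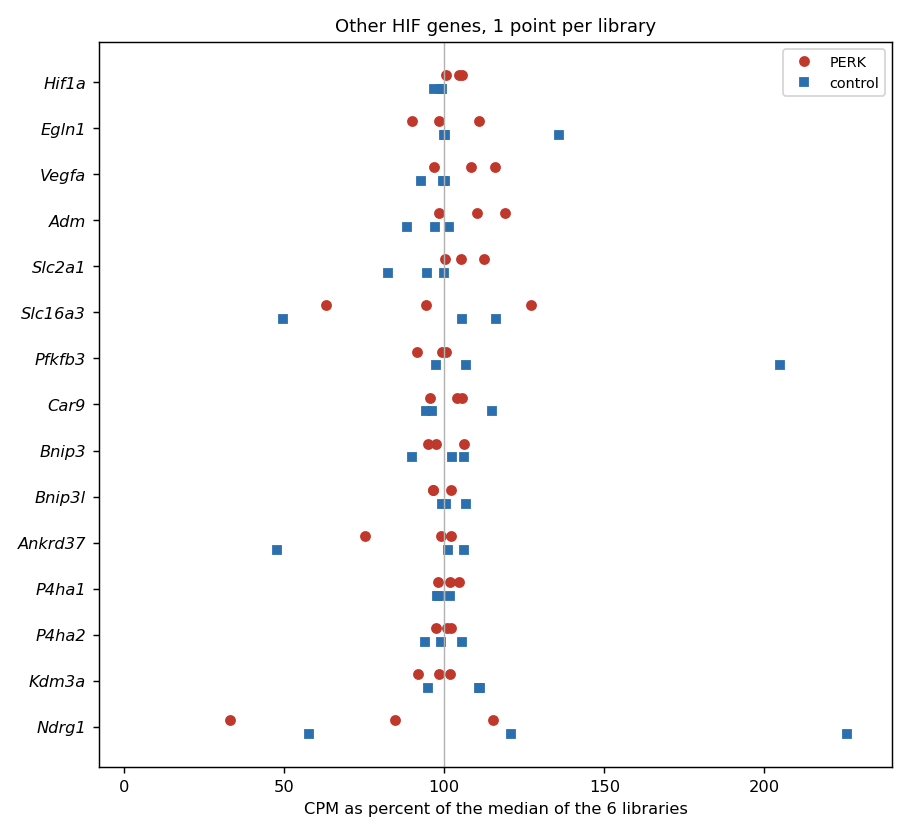
Level of each non-enzyme gene in each library, as percent of the median of the 6 libraries (horizontal axis), with circles for PERK-labelled and squares for control libraries. Most points lie near the median, control replicate 1 is apart for Pfkfb3 (13.5 CPM), and Slc16a3, Ankrd37 and Ndrg1 scatter at levels under 1.5 CPM. Egln3 is left out because 5 of its 6 values are 0.

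The remaining targets serve mitochondria, matrix and chromatin. Bnip3 and Bnip3l encode receptors that mark mitochondria for autophagy. Bnip3 was at 40.4, 36.1 and 37.1 CPM in PERK-labelled and 40.4, 39.03 and 34.2 CPM in control libraries, and Bnip3l at 29.0 to 30.7 against 29.8 to 32.1 CPM. Their log2 fold changes were -0.0020 (SE 0.07) and -0.06 (SE 0.05), with overlapping groups for both. P4ha1 and P4ha2 encode catalytic subunits of collagen prolyl hydroxylase. P4ha1 was at 238 to 254 CPM in PERK-labelled and 237 to 247 CPM in control libraries, and P4ha2 at 90.7 to 95.1 against 87.6 to 98.4 CPM. These 2 genes had log2 fold changes of 0.03 (SE 0.04) and 0.0085 (SE 0.05), among the tightest estimates outside the enzymes. P4ha2, whose promoter is shown above, thus stayed within the control range in all 3 PERK-labelled libraries. Kdm3a, a histone H3 lysine 9 demethylase, was at 27.04, 24.4 and 26.2 CPM against 25.3, 29.6 and 29.5 CPM in control libraries (log2 fold change -0.12, SE 0.07). Ankrd37, an ankyrin repeat gene known as a HIF target, was at 1.34, 1.30 and 0.983 CPM against 0.623, 1.39 and 1.32 CPM in control libraries. Ndrg1, a stress-responsive gene, was at 0.172, 0.443 and 0.603 CPM against 0.632, 0.302 and 1.18 CPM, the highest value again in control replicate 3. With counts this low their estimates were loose (log2 fold changes 0.12, SE 0.33, and -0.79, SE 0.64).

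Turning to glycolysis in the order of its steps, hexokinase traps glucose as glucose 6-phosphate. Hk1, the housekeeping form, was at 71.1, 66.6 and 64.2 CPM in PERK-labelled libraries and at 59.7, 61.8 and 64.1 CPM in control libraries, with no overlap but PERK replicate 3 and control replicate 3 almost equal (log2 fold change 0.12, SE 0.05, edgeR adjusted p = 0.456). Hk2, the form raised by HIF-1 and insulin in muscle, was at 45.2, 41.4 and 46.3 CPM against 45.0, 44.1 and 36.8 CPM in control libraries. Control replicate 3 was lowest, and the log2 fold change of 0.08 (SE 0.08) was -0.0082 without it. Hk2 held 39.7% ± 1.95 of the counts of both genes in PERK-labelled and 40.4% ± 3.44 in control libraries (SD, n = 3 each). Gpi, which converts glucose 6-phosphate to fructose 6-phosphate, was at 182, 177 and 168 CPM against 169, 183 and 169.5 CPM (log2 fold change 0.01, SE 0.05).

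Phosphofructokinase, the committed step, has muscle (Pfkm), liver (Pfkl) and platelet (Pfkp) subunits. Pfkm was at 197, 183 and 195 CPM in PERK-labelled and 170.4, 184 and 182 CPM in control libraries (log2 fold change 0.10, SE 0.05, edgeR adjusted p = 0.477). Pfkl was at 37.1 to 42.5 CPM against 40.3 to 41.8 CPM, and Pfkp at 27.2 to 30.7 against 28.6 to 32.1 CPM in control libraries. Their log2 fold changes were -0.04 (SE 0.05) and -0.07 (SE 0.06). Pfkm held 73.5% ± 1.72 of the counts of the 3 genes in PERK-labelled libraries and 71.4% ± 0.915 in control libraries (SD, n = 3 each), and the ranges overlapped. Aldoa, the muscle aldolase that splits fructose 1,6-bisphosphate, was at 1146, 1217 and 1173 CPM in PERK-labelled and at 1072, 1121 and 1099.8 CPM in control libraries. All 3 PERK-labelled values exceeded all control values (log2 fold change 0.10, SE 0.04, unadjusted p = 0.0205, edgeR adjusted p = 0.33). Aldoc, the brain form, had 31, 29 and 0 counts in PERK-labelled and 6, 19 and 23 counts in control libraries, too few to place a change.

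In the later steps of the pathway, Gapdh, which makes 1,3-bisphosphoglycerate, was at 975, 1203 and 1145 CPM in PERK-labelled libraries and at 1093, 1021 and 856 CPM in control libraries. The groups overlapped, and control replicate 3 was again lowest. Its log2 fold change of 0.16 (SE 0.10, edgeR adjusted p = 0.596) moved both ways when 1 library was left out. It was 0.07 with control replicate 3 removed and 0.10 with PERK replicate 2 removed, but 0.25 with PERK replicate 1 removed and 0.24 with control replicate 1 removed. Gapdh, often used to scale other genes, had a larger standard error than every other enzyme gene but Aldoc, Tpi1 and Eno2. Pgk1, which makes the first ATP, was at 298, 302 and 291 CPM against 293, 294 and 288 CPM in control libraries, the smallest standard error of the 32 genes (log2 fold change 0.03, SE 0.03). Its 95% interval ran from -0.04 to 0.10.

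Pgam1, which moves the phosphate to make 2-phosphoglycerate, was at 354, 386 and 380 CPM in PERK-labelled and at 350.2, 347 and 331 CPM in control libraries, with no overlap (log2 fold change 0.12, SE 0.04, unadjusted p = 0.0178, edgeR adjusted p = 0.31). Eno1, the ubiquitous enolase, was at 1125, 1158 and 1176 CPM against 1097, 1074 and 1075 CPM, again without overlap (log2 fold change 0.09, SE 0.03, unadjusted p = 0.0204, edgeR adjusted p = 0.33). Aldoa, Pgam1 and Eno1 are the 3 genes with an unadjusted p under 0.05 by edgeR. DESeq2 gave Eno1, Aldoa and Pgam1 adjusted p of 0.0531, 0.0561 and 0.0693, and 49 of its 197 calls in the simulated data were false. In the authors' deposited table the adjusted p of Eno1, Aldoa and Pgam1 were 0.913, 0.917 and 0.295. Pkm, pyruvate kinase of muscle and most growing cells, was at 748, 726 and 696 CPM against 686, 697 and 673 CPM in control libraries, where PERK replicate 3 and control replicate 2 nearly coincide (log2 fold change 0.08, SE 0.04).

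Lactate dehydrogenase turns pyruvate into lactate and back, and its A subunit is a classic HIF-1 target. Ldha was at 717, 704 and 701 CPM in PERK-labelled libraries and at 697, 660.4 and 658 CPM in control libraries. The groups did not overlap and lay closest at PERK replicate 3 and control replicate 1 (log2 fold change 0.07, SE 0.03, edgeR adjusted p = 0.453). Ldhb, the heart form, was at 105 to 109 CPM against 101 to 106 CPM (log2 fold change 0.05, SE 0.04). The share of Ldhb in the counts of both genes was 13.1% ± 0.285 in PERK-labelled and 13.3% ± 0.56 in control libraries (SD, n = 3 each), so the balance of the subunit transcripts differed by less than the spread.

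**Figure D3:**
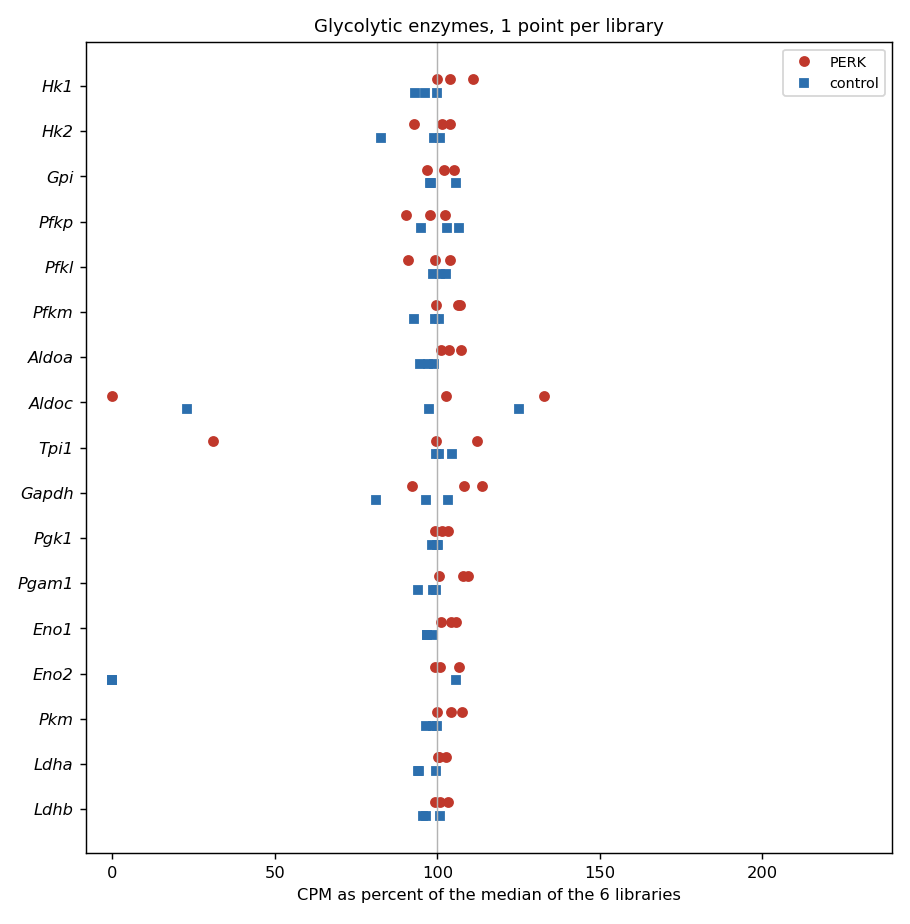
Level of each glycolytic enzyme gene in each library, as percent of the median of the 6 libraries (horizontal axis), with circles for PERK-labelled and squares for control libraries. For Hk1, Aldoa, Pgam1, Eno1 and Ldha all circles lie right of all squares, by small margins, while Tpi1 has PERK replicate 2 at 50.1 CPM and Eno2 has control replicates 2 and 3 at 0.

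Summed over the 17 enzymes, the level was 6256, 6431 and 6409.8 CPM in PERK replicates 1 to 3 and 6109, 6038 and 5768 CPM in control replicates 1 to 3. Every PERK-labelled library lay above every control library, and control replicate 3 was lowest. The sum weights each gene by its counts and so does not speak for each enzyme. Without Tpi1 and Eno2 it was 6036, 6339.6 and 6209 CPM against 5907, 5868 and 5604 CPM. The summed other HIF genes came to 666, 657 and 649.9 CPM in PERK-labelled libraries against 636, 650.4 and 649.6 CPM in control libraries.

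Eno2 and Tpi1 behaved unlike the other well counted enzymes, because libraries of the same group disagreed. Eno2, the enolase named for neurons and also a HIF target, was at 38.4, 41.3 and 39.0 CPM in PERK-labelled libraries and at 40.9 CPM in control replicate 1, but had 0 counts in control replicates 2 and 3. At 18 counts those 2 libraries allow at most 0.218 and 0.231 CPM. It is 1 of 80 entries in the table (0.306%) under 0.1 CPM in at least 1 library and over 5 CPM in another, and the only one of the 33 genes. Its log2 fold change of 1.51 (SE 1.42, edgeR adjusted p = 0.754) therefore rests on which libraries are counted. Without control replicate 1 it was called, with adjusted p = 2.1e-06, as the 1 of 32 genes called in any edgeR fit (0.255% of all entries in that fit), and without control replicate 2 or 3 its log2 fold change was 0.93 or 0.94. The fitted value was 14.86 without control replicate 1, 7.60 with limma voom and 4.5 with a replicate block, against counts of 0 where it depends on the prior count and is no bound. The neighbouring gene Atn1 was at 4.88, 5.76 and 0 CPM in PERK-labelled and 7.99, 7.97 and 0 CPM in control libraries, so it too was listed at 0 in control replicate 3, but also in PERK replicate 3. Lrrc23, the neighbour on the other side, was at 0 in all 6.

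Tpi1, the isomerase that interconverts the products of aldolase, lies close to Eno2 on chromosome 4. It was at 182, 50.1 and 161 CPM in PERK replicates 1 to 3 and at 161, 169.5 and 163 CPM in control libraries. PERK replicate 2 was at 30.7% of the median of the other 5, while every other library agreed. By edgeR Tpi1 differed by -0.33 on the log2 scale (SE 0.38, adjusted p = 0.806), and by 0.06 (SE 0.06) without PERK replicate 2. Of its neighbours, Usp5 was at 91.7, 64.1 and 97.1 CPM in PERK-labelled libraries against 84.8, 87.96 and 86.2 CPM in control libraries, so it was low in PERK replicate 2 too, at 72.9% of the median of the others. Spsb2, the gene next to Tpi1 on the other side, was at 8.84, 7.99 and 8.48 CPM against 8.26, 7.71 and 7.51 CPM and was not low there. Setting each library aside in turn, 9094 to 9128 entries had the other 5 over 5 CPM and within 1.5-fold of each other. In 36 entries the library set aside was more than 2-fold away, and Tpi1 and Pfkfb3 are 2 of them. The base among the hypoxia and glycolysis genes was not counted, so 2 is not read as many or few. What set these values apart was not tested.

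**Figure D4:**
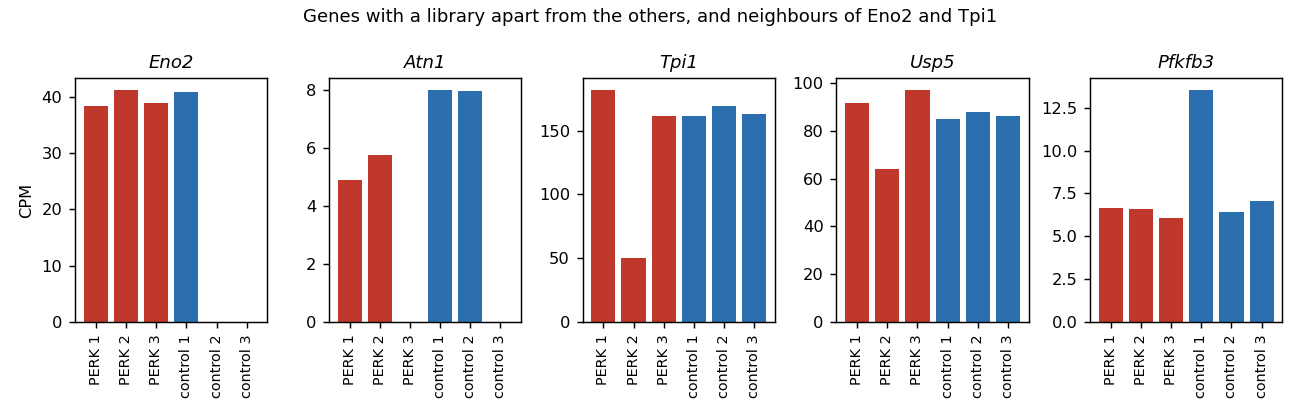
CPM in each library (bars, with PERK-labelled libraries left of control libraries) of Eno2, Tpi1 and Pfkfb3 and of Atn1 and Usp5, which neighbour Eno2 and Tpi1. Eno2 is at 0 in control replicates 2 and 3, Atn1 at 0 in PERK replicate 3 and control replicate 3, Tpi1 and Usp5 are lowest in PERK replicate 2, and Pfkfb3 is highest in control replicate 1.

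Copies in the genome limit how firmly some enzymes can be read. RefSeq of GRCr8 names copies of 9 of the 17 enzymes, 91 of them for Gapdh, 34 for Eno1, 31 for Ldha, 20 for Pkm, 13 for Pgam1, 9 each for Aldoa and Pgk1, 5 for Tpi1 and 1 for Ldhb. Searched by these names and their synonyms, only 2 copies of Gapdh and 1 of Eno1 were found in the count table. Copies listed there under other names would be missed. The 2 Gapdh copies there summed to 117, 106 and 124 CPM in PERK-labelled libraries and 98.5, 119.9 and 125 CPM in control libraries. Their order over the libraries was unlike that of Gapdh, since PERK replicate 2, highest for Gapdh, was lowest of its group for the copies. The Eno1 copy was at 29.4 to 35.4 CPM against 28.3 to 31.7 CPM. The labels do not say how reads that match several copies were counted, so these 9 enzymes are uncertain as single genes.

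Other genes of the same pathways were looked at through 3 lists. Of 13 found genes of the HIF machinery 11 were tested and 0 passed the test (median log2 fold change -0.02). Arnt2, a partner of HIF alpha subunits, had the smallest p, at 34.5 ± 1.06 CPM in PERK-labelled and 39.6 ± 3.50 CPM in control libraries (SD, n = 3 each; log2 fold change -0.20, SE 0.07, edgeR adjusted p = 0.304). Egln2, which encodes PHD1, was at 44.9 ± 3.29 CPM against 41.7 ± 1.23 CPM (log2 fold change 0.11, SE 0.06). Of 28 tested genes of 37 found in further glucose metabolism 0 passed the test (median 0.02). Slc16a1, which encodes the lactate transporter MCT1, was at 59.5 ± 3.03 CPM against 53.8 ± 2.91 CPM, and Pgls, of the pentose phosphate pathway, at 30.8 ± 1.41 CPM against 26.4 ± 3.82 CPM. These 2 had the smallest p of that list (edgeR adjusted p = 0.396 and 0.456).

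Further HIF targets held the 1 call among these pathway genes. That list, like the others, was chosen with earlier results of these data known, so its counts are description only. Of 32 tested genes of 37 found, Stc2 rose and 0 fell, against 0.311% and 0.11% of all entries, and the median was 0.05. At an unadjusted p under 0.05, 8 were higher and 4 lower, while 5.94% and 5.29% of all entries were. Stc2, a secreted stress glycoprotein that is also a target of ATF4, was at 45.3, 41.7 and 39.5 CPM in PERK-labelled libraries and at 31.5, 31.5 and 31.2 CPM in control libraries. All PERK-labelled values lay clearly above the closely spaced control values (log2 fold change 0.42, SE 0.05, edgeR adjusted p = 0.0217). The call ended in 6 of 16 alternatives, with a replicate block (adjusted p = 0.0914), without PERK replicate 1 (0.074) or 2 (0.088), and without control replicate 1 (0.0767), 2 (0.108) or 3 (0.0866), and over all alternatives adjusted p ran from 5.5e-07 to 0.108. In those 6 the log2 fold change was 0.37 to 0.43.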

How the data were processed

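The authors' deposited table gives whole-number counts per gene for 6 libraries, and these counts were used. Per the submitters' processing notes, Bowtie 0.12.2 was a tool and mm9, a mouse build, a genome, although the samples are rat. For the counts, the program and build were not given in the sources used here. In addition, the same deposited table holds the authors' normalized signal per library, and their log2 fold changes, standard errors, p-values (raw and adjusted) and a test score. Of these, values of single genes are printed only for Egln3, Eno1, Aldoa and Pgam1. A second table was left out because its 6 value columns could not be tied to labelled samples.

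Counts were tested in edgeR 4.0.16 (R 4.3.3) with TMM scaling, filterByExpr (minimum count 10), a quasi-likelihood fit with group as the only term and Benjamini-Hochberg adjustment over all 14488 tested entries, with calls at 0.05. CPM use TMM-scaled totals, and no transcript lengths were used. Levels are thus not compared between genes. Shares within a gene family and summed CPM also depend on transcript length and are compared only between libraries. Standard errors were derived from each log2 fold change and its F value, and 95% intervals from these. Low counts lie near multiples of about 6 (period 5.9 to 5.95), so a library at 0 was given a limit of 3 steps, 18 counts. Such limits and intervals cover counting error or library spread only. DESeq2 1.42.0 and limma 3.58.1 were alternatives. The steps were tested on simulated data with 200 changed genes, where edgeR made 7 false calls among 140, DESeq2 49 among 197, limma voom 8 among 140 and the fit with a replicate block 10 among 134.

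The genes and lists were chosen with earlier results of these data known. The genes named are the 33 members, called genes of 3 further pathway lists or, where none was called, the 2 with the smallest p, and Eif2ak3. Atn1, Usp5, Spsb2 and Lrrc23 were added after values were seen, as neighbours of Eno2 and Tpi1 in RefSeq GRCr8, which was used for names, order and promoters.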

Additional observations from a re-analysis of the deposited data

How the results depend on the processing

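The 61 calls over all entries became 392 with DESeq2, 110 with limma voom, 132 with robust estimation, 94 without a filter, 106 with at least 5 CPM in 3 libraries, 93 with counts divided by 6, and 12 to 38 with 1 library left out. Without the 80 entries near 0 in some libraries only, an alternative chosen after seeing the data, they were 83. Calls among the 33 genes and among the enzymes stayed at 0 under all alternatives but 1 (0 to 1 with 1 library left out, the 1 being Eno2 without control replicate 1), and calls among the other HIF genes stayed at 0. With the replicate number as a block 9 entries were called and 0 of the 33 genes. Deviations of same-numbered libraries correlated at -0.0631, 0.0114 and 0.029, and PERK replicate 1 correlated best with control replicate 3. The numbers were therefore not taken as pairs, though such values do not show how the libraries were prepared. The median log2 fold change ranged from 0.06 to 0.09 for the enzymes and from -0.03 to 0.05 for the other HIF genes. The summed enzymes had a log2 ratio of 0.09 with TMM and with DESeq2 size factors.

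Of the 32 tested genes 22 kept their sign in all alternatives that tested them and 10 did not, and none of the 10 was called. Car9 was at 0.020 with limma voom, 0.0030 without a filter and 0.0030 with a replicate block, and Bnip3 at 0.0020 without a filter and 2.2e-04 with the block. Leaving out 1 library, log2 fold changes ran from -0.0082 to 0.13 for Hk2, -0.013 to 0.049 for Gpi, -0.082 to 0.015 for Pfkl, -0.64 to 0.53 for Aldoc, -0.64 to 0.060 for Tpi1, -0.23 to 0.30 for Slc16a3, -0.055 to 0.094 for Car9, -0.069 to 0.046 for Bnip3, -0.17 to 0.31 for Ankrd37, -0.032 to 0.051 for P4ha2 and -0.020 to 0.060 for Eif2ak3. The cause was not tested. Counts were few for Aldoc, Egln3, Slc16a3, Ankrd37 and Ndrg1, whose levels stayed under 1.5 CPM in every library.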
